A study of Danio rerio with 6 samples.

Results

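Gluconeogenesis is the making of new glucose from lactate, amino acids and glycerol, and in a fasting vertebrate it takes place mainly in hepatocytes. It runs most of glycolysis backwards, but the irreversible glycolytic steps are bypassed by enzymes of its own. Among them are phosphoenolpyruvate carboxykinase, fructose-1,6-bisphosphatase and glucose-6-phosphatase. In mammals, glucagon and glucocorticoids raise transcription of these genes, insulin lowers it, and the coactivator PGC-1alpha takes part in the fasting response. The 8 zebrafish genes described here cover the steps of the enzymes named above. They are pck1 and pck2 (the cytosolic and mitochondrial phosphoenolpyruvate carboxykinases), fbp1a and fbp1b (fructose-1,6-bisphosphatases), g6pca.1 and g6pca.2 (catalytic subunits of glucose-6-phosphatase), slc37a4a (the transporter that brings glucose-6-phosphate into the endoplasmic reticulum) and ppargc1a (PGC-1alpha). They were taken by gene name, and all 8 were found among the 23354 genes of the deposited table.

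Livers were dissected from adult zebrafish of 2 genotypes, capn3b-/- mutants and wild type AB, a laboratory strain, and 3 libraries of each were sequenced. The gene capn3b encodes a zebrafish calpain 3, a calcium-dependent protease, and the series asked which genes differ in expression between the mutant and wild type liver. The labels do not give the lesion, the sex of the fish, their feeding state or the hour of dissection, so a difference in any of these between the groups cannot be told apart from genotype. Nor do the labels state that each library is a separate fish, and p-values then measure the spread between these libraries, which may be technical.

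Expression is given in FPKM, read fragments scaled by gene length and library depth, and the libraries rest on 16858409 to 19492592 reads. Hepatocyte marker genes were abundant in every library, with a summed level over 22 genes of 179322 to 184988 FPKM in the mutant and 165674 to 176788 FPKM in the wild type. The targeted gene capn3b had 1 read in mutant replicate 3 and 0 reads in the other 5 libraries, so its level checks no label. A count of 0 allows up to 3 reads, for counting error only. Differences between genotypes are log2 fold changes of FPKM + 1, mutant over wild type, tested with limma across the 11164 genes that reached 1 FPKM in at least 3 of 6 libraries. A gene is called changed at a Benjamini-Hochberg adjusted p under 0.05, a rule that 11.4% of tested genes met in either direction, 5.91% as higher and 5.45% as lower in the mutant.

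Of the 8 gluconeogenesis genes, pck1 stood furthest below its wild type level in the mutant liver. All 8 genes passed the expression filter, 4 of them fell (pck1, fbp1b, slc37a4a and pck2) and none rose. The fitted log2 fold change was negative for each of the 8, with a median of -0.67 against 0.05 over all tested genes. In 6 of the 8, every mutant library lay below every wild type library, an order found in 14.7% of tested genes. The genes outside that order were fbp1a and ppargc1a. In bulk liver, fewer cells of a type and less RNA per cell cannot be told apart. Without mutant replicate 1, or without wild type replicate 2, the number of these genes called as fallen was 2 in place of 4.

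**Figure D1:**
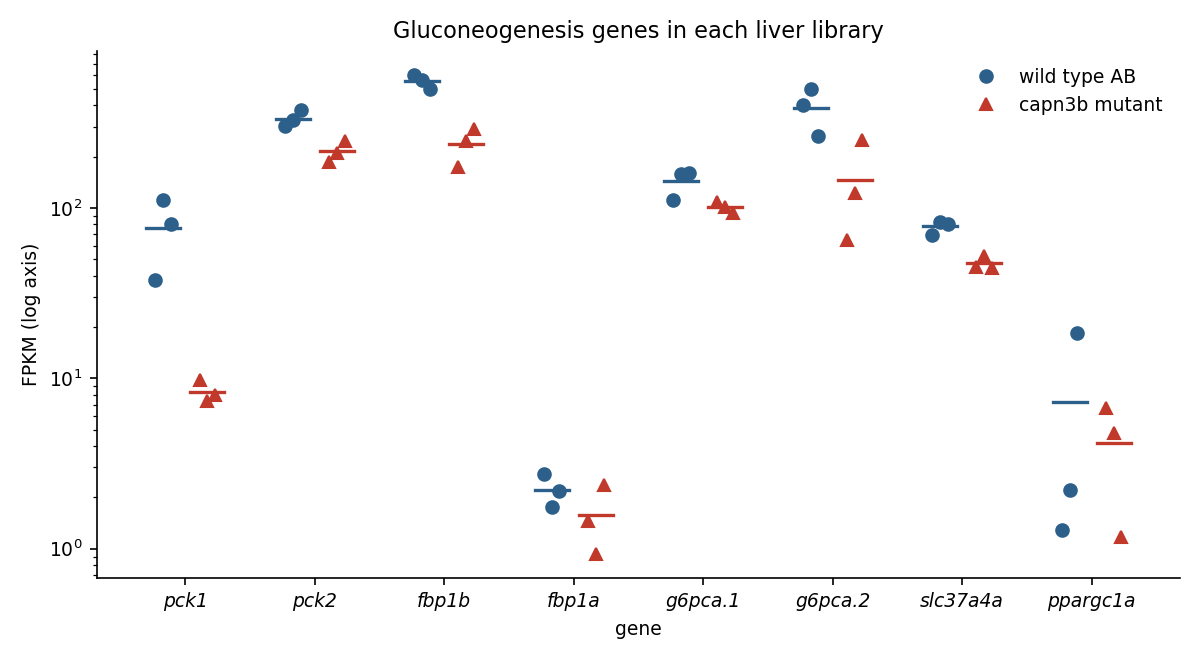
FPKM of the 8 gluconeogenesis genes on a log axis, with 1 point per library (3 wild type AB as circles, 3 capn3b mutant as triangles) and a bar at each group mean. For pck1 the mutant libraries sit between 7.33 and 9.82 FPKM and the wild type libraries between 37.6 and 111 FPKM, whereas the groups overlap for fbp1a and ppargc1a.

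The order of the mean levels was the same in both genotypes except that g6pca.2 and pck2 exchanged places. In the wild type, mean levels ran from fbp1b (556 FPKM) through g6pca.2 (389), pck2 (334), g6pca.1 (144), slc37a4a (77.9), pck1 (76.1) and ppargc1a (7.31) down to fbp1a (2.22 FPKM). The libraries of the neighbours g6pca.2 and pck2 overlapped in this order, as did those of slc37a4a and pck1, and of ppargc1a and fbp1a. In the mutant the order was fbp1b (236 FPKM), pck2 (215), g6pca.2 (146), g6pca.1 (101), slc37a4a (47.4), pck1 (8.37), ppargc1a (4.19) and fbp1a (1.59 FPKM). There the libraries of fbp1b, pck2 and g6pca.2 overlapped, as did those of g6pca.2 and g6pca.1, and of ppargc1a and fbp1a. In the wild type the pck1 libraries lay below, within and above the range of the transporter gene slc37a4a, and in the mutant wholly below it. By mean FPKM among all genes, pck1 ranked 643rd in wild type livers and 3424th in mutant livers.

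Phosphoenolpyruvate carboxykinase turns oxaloacetate into phosphoenolpyruvate, the step that commits carbon to gluconeogenesis. The cytosolic form is encoded by pck1 (ENSDARG00000013522, chromosome 6, 60060245 to 60067174, plus strand; here and below the coordinates are the deposited table's, and the submitters' processing notes name the build GRCz11). It measured 9.82, 7.33 and 7.95 FPKM in mutant replicates 1 to 3 and 37.6, 111 and 80.2 FPKM in wild type replicates 1 to 3. The mutant libraries were close to each other, the wild type libraries were spread, and the groups were far apart. The means were 8.37 ± 1.3 and 76.1 ± 36.7 FPKM (SD, n = 3 each), a level 9.1 times higher in the wild type, and 7.04 to 11.4 times higher with any 1 library left out. On the log2 scale pck1 fell by 2.92 (standard error 0.36, limma adjusted p = 0.00503), and the call held under each of the 13 alternatives run (adjusted p 0.00142 to 0.0222). Behind these values stood 509, 380 and 425 reads in the mutant and 2119, 5532 and 3915 reads in the wild type.

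The whole span of pck1 lies inside pmepa1, a gene on the opposite strand, and no source says that strand was used in counting, so reads of these genes may be shared. The level of pmepa1 was 1.23 FPKM in the mutant and 3.54 FPKM in the wild type (log2 fold change -1.04, limma adjusted p = 0.0206). It held 11, 24 and 24 reads in the mutant and 53, 68 and 46 reads in the wild type, far fewer than pck1 in each library.

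The mitochondrial form, pck2 (ENSDARG00000020956, chromosome 24, 12775600 to 12794503, minus strand), changed much less. It measured 186, 210 and 248 FPKM in the mutant libraries and 302, 327 and 374 FPKM in the wild type libraries. The groups did not overlap, and the gap between them, from 248 to 302 FPKM, was only a little wider than the widest step within a group. The means were 215 ± 31.1 and 334 ± 36.9 FPKM, 1.56 times higher in the wild type, with a log2 fold change of -0.64 (standard error 0.16, limma adjusted p = 0.039). This call was lost in 7 of 13 alternatives, among them no filter and leaving out either of mutant replicates 1 and 2 or any wild type library (highest adjusted p 0.13).

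In each mutant library pck1 stood lower against pck2 than in any wild type library. The ratio of pck1 to pck2 FPKM was 0.0527, 0.0349 and 0.0321 in mutant livers against 0.125, 0.338 and 0.214 in wild type livers. The mean log2 ratio, taken with 1 added to each FPKM, was -4.52 ± 0.36 in mutant livers and -2.25 ± 0.71 in wild type livers, a difference of -2.28. The groups did not overlap, which gives a two-sided exact permutation p of 0.1, the smallest that 3 libraries against 3 allow, and 0.14 after adjustment over the 7 gene pairs compared. Summed, the FPKM of both enzymes was 223 ± 30.3 in mutant livers and 410 ± 62.4 in wild type livers, 1.84 times higher in the wild type, so that the sum followed the more abundant pck2 more closely than pck1.

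Fructose-1,6-bisphosphatase removes a phosphate from fructose-1,6-bisphosphate, opposite to phosphofructokinase. In these livers nearly all of its transcript came from fbp1b (ENSDARG00000020364, chromosome 5, 34858037 to 34861973, plus strand). It measured 173, 246 and 290 FPKM in the mutant libraries and 605, 563 and 500 FPKM in the wild type libraries. No mutant library came near the lowest wild type library. The means were 236 ± 58.9 and 556 ± 52.6 FPKM, 2.36 times higher in the wild type. On the log2 scale fbp1b fell by 1.26 (standard error 0.2, limma adjusted p = 0.0104), and the call held under each of the 13 alternatives (0.0084 to 0.0468). In rank it was the 154th most abundant gene in the wild type and the 290th in the mutant.

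The paralog fbp1a (ENSDARG00000021366, chromosome 5, 44174925 to 44243585, minus strand) was hardly expressed. It measured 1.45, 0.933 and 2.38 FPKM in the mutant libraries and 2.73, 1.76 and 2.17 FPKM in the wild type libraries, from 27 to 86 reads each. The groups overlapped, and the log2 fold change of -0.34 (standard error 0.22) did not pass, with an adjusted p of 0.368 (limma). Its span overlaps ctsla, dapk1 and fbp2, so its few reads are uncertain. The muscle-type enzyme gene fbp2 had 1 read in wild type replicate 1 and 0 in the other 5 libraries. The ratio of fbp1a to fbp1b FPKM was 0.0084, 0.0038 and 0.00821 in mutant livers against 0.00451, 0.00312 and 0.00433 in wild type livers. Mutant replicate 2 lay inside the wild type range. With 1 added to each FPKM the mean log2 ratios were -6.52 and -7.44 and the groups did not overlap (two-sided exact permutation p = 0.1, adjusted 0.14), so for this low gene the order of the libraries depended on the added 1. Both enzymes together gave 238 FPKM in mutant livers and 558 FPKM in wild type livers, and fbp1b made up all but a few FPKM of either sum.

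Glucose-6-phosphatase releases free glucose inside the endoplasmic reticulum, the last step before glucose leaves the hepatocyte. Its catalytic subunit genes g6pca.1 (ENSDARG00000031616, chromosome 12, 5989911 to 6000263, minus strand) and g6pca.2 (ENSDARG00000013721, chromosome 12, 6007978 to 6014702, plus strand) are neighbours. The first measured 109, 101 and 93.4 FPKM in the mutant libraries and 112, 159 and 161 FPKM in the wild type libraries. Mutant replicate 1 and wild type replicate 1 were nearly equal, and the other wild type libraries stood above. The means were 101 ± 8 and 144 ± 27.6 FPKM, and the log2 fold change of -0.49 (standard error 0.18) did not pass, with an adjusted p of 0.117 (limma). It passed in 1 of 13 alternatives, without wild type replicate 1 (adjusted p = 0.0456).

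Within the mutant group, g6pca.2 had the widest spread of the enzyme genes. It measured 64.8, 122 and 251 FPKM in the mutant libraries and 400, 499 and 266 FPKM in the wild type libraries. Mutant replicate 3, at 3.88 times the level of mutant replicate 1, came up to wild type replicate 3, and the groups just failed to overlap. The means were 146 ± 95.5 and 389 ± 117 FPKM, 2.66 times higher in the wild type, and 4.16 times higher without mutant replicate 3. The log2 fold change of -1.57 (standard error 0.46) did not pass, with an adjusted p of 0.0637 (limma, 0.0167 to 0.192 over the 13 alternatives). It passed without mutant replicate 3 and with limma voom on the reads recovered from the FPKM values. Its 3' end overlaps aarsd1, which held 54 to 98 reads in a library against 3467 to 25769 for g6pca.2.

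The balance of this gene pair moved within each group as much as between them. The ratio of g6pca.1 to g6pca.2 FPKM was 1.69, 0.829 and 0.372 in mutant livers against 0.28, 0.318 and 0.605 in wild type livers. Mutant replicate 3 lay inside the wild type range, and the difference in mean log2 ratio, 1.09, had a two-sided exact permutation p of 0.2 (0.233 adjusted over the 7 pairs). Summed, the pair gave 174, 223 and 345 FPKM in the mutant libraries and 512, 658 and 428 FPKM in the wild type libraries, means of 247 ± 87.8 and 532 ± 116 FPKM. The groups did not overlap in that sum, which was 2.15 times higher in the wild type.

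Glucose-6-phosphate reaches the catalytic subunit through the transporter encoded by slc37a4a (ENSDARG00000038106, chromosome 15, 9318549 to 9339495, plus strand). It measured 45.2, 52.3 and 44.7 FPKM in the mutant libraries and 69.8, 82.9 and 81.0 FPKM in the wild type libraries. Both groups were tight and well apart, with means of 47.4 ± 4.24 and 77.9 ± 7.06 FPKM, 1.64 times higher in the wild type. On the log2 scale it fell by 0.70 (standard error 0.14, limma adjusted p = 0.0213). The call was lost in 2 of 13 alternatives, those that left out mutant replicate 1 (or, in turn, wild type replicate 2), where the adjusted p reached 0.0814. The ends of the gene overlap trappc4 and a clone-named gene on the opposite strand. The paralog slc37a4b is listed under a pair of identifiers, and neither reached 0.1 FPKM in any library, with at most 8 reads.

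**Figure D2:**
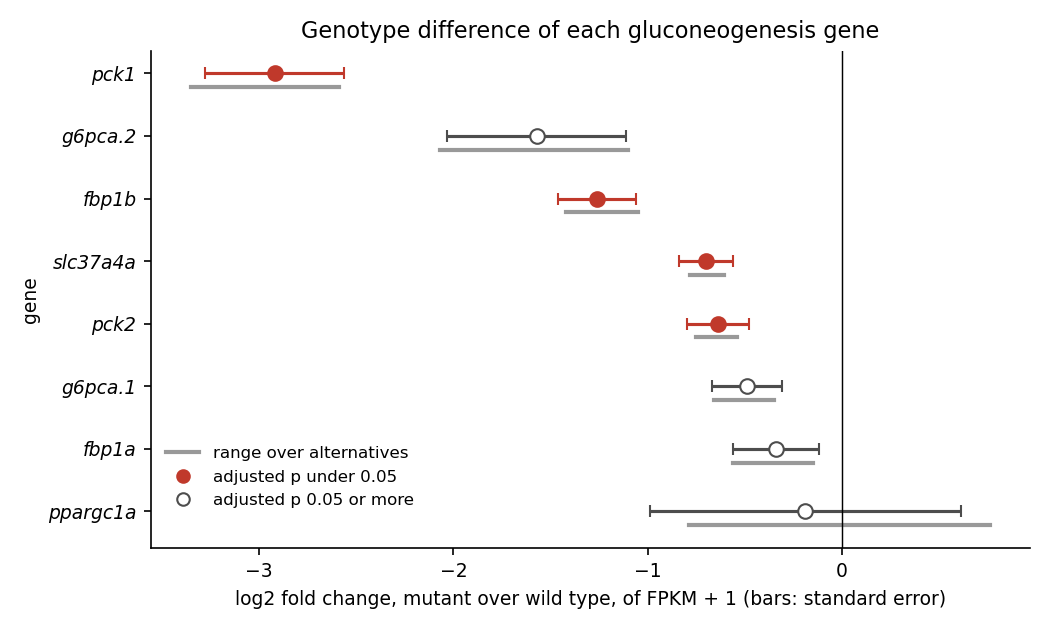
Log2 fold change of FPKM + 1, mutant over wild type, for each of the 8 genes (point; bar, standard error), with filled points for an adjusted p under 0.05 (limma) and a grey line for the range over the alternatives. The values run from -2.92 for pck1 to -0.19 for ppargc1a, and the grey line of ppargc1a alone crosses 0, from -0.79 to 0.76.

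The coactivator gene ppargc1a (ENSDARG00000067829, chromosome 7, 70128523 to 70219243, minus strand) showed no order by genotype. It measured 6.66, 4.75 and 1.17 FPKM in the mutant libraries and 1.28, 2.2 and 18.4 FPKM in the wild type libraries. The highest wild type library was 14.4 times the lowest, the highest mutant library 5.71 times the lowest, and the groups overlapped almost completely. The fitted log2 fold change was -0.19 (standard error 0.8, limma adjusted p = 0.904). Its sign turned without mutant replicate 3 (0.348) and also when wild type replicate 3 was left out (0.759). Wild type replicate 3, the highest library for ppargc1a, was the lowest of its group for fbp1b and g6pca.2 and the highest for pck2 and g6pca.1. Mutant replicate 3, the lowest library for ppargc1a, was the highest of its group for pck2, fbp1a, fbp1b and g6pca.2 and the lowest for g6pca.1 and slc37a4a.

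The regulator gene foxo1a, a forkhead factor that insulin signalling keeps out of the nucleus in mammals, ran nearly in the order of ppargc1a. It measured 15.9, 14.2 and 5.35 FPKM in the mutant libraries and 3.72, 8.48 and 39.0 FPKM in the wild type libraries. Wild type replicate 3 was again highest, followed by mutant replicates 1 and 2 and wild type replicate 2, and only the places of the lowest libraries, mutant replicate 3 and wild type replicate 1, were exchanged. Its log2 fold change was -0.04 (standard error 0.73, limma adjusted p = 0.978). This likeness was noticed after the values were seen, and over 6 libraries it is a description.

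The authors' lists of transcript events, made from the same reads, give the levels of starts and ends and are no independent measurement. For pck1 they list a single start and a single end in each library. The level of transcripts from that start was 9.3, 6.93 and 7.47 FPKM in the mutant libraries and 39.6, 106 and 90.7 FPKM in the wild type libraries, in the order of the gene's own values. The level at the end was the same, except in wild type replicate 3, where it was 66.1 FPKM. Starts of fbp1b summed to 363, 532 and 613 FPKM in the mutant and 1305, 1159 and 1031 FPKM in the wild type. The event lists give these starts under fbp1b and erlin2 together, with the whole level at the start from 34858081 to 34858308. In every library the sum stood well above the gene's own FPKM, so only the order can be compared. Starts of ppargc1a were in part inside the gene. The annotated start took 75.7%, 100% and 100% of the summed start level in mutant livers against 100%, 56.9% and 73.2% in wild type livers, with no order by genotype. For fbp1a, transcripts ended at a distal or a proximal position, and the distal end took 29.3%, 31.6% and 65.2% in mutant livers against 79.3%, 0% and 79.1% in wild type livers. With so few reads, those shares are loose.

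Over the 6 libraries, pck1 levels (log2 of FPKM + 1) were most like those of pkp3a, aspdh, MAF1, thrsp and eif4a2 among all tested genes with a symbol, with Pearson's r of 0.997, 0.9943, 0.9926, 0.9905 and 0.9897. The libraries fall into 2 separate groups, so such r values mainly carry the genotype difference and are given as a description. The gene thrsp, which encodes a spot 14 protein of lipogenic tissue, had, of these 5, the difference nearest in size to that of pck1. It measured 12.1, 12.7 and 11.0 FPKM in the mutant libraries and 60.1, 114 and 96.4 FPKM in the wild type libraries (log2 fold change -2.77, limma adjusted p = 0.00137). In each of the 5 genes, picked for likeness to pck1 over these same libraries, the wild type libraries stood in the order of pck1. Among the other gluconeogenesis genes, slc37a4a was most like pck1 (r = 0.96), then g6pca.1 (0.93), pck2 (0.89), fbp1b (0.85), g6pca.2 (0.73), fbp1a (0.41) and ppargc1a (0.19).

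Some of the genes that supply carbon to gluconeogenesis fell. Of 24 tested genes for pyruvate, lactate, malate, aspartate, alanine and glycerol entry, 5 fell, none rose and 19 did not pass. The median log2 fold change was -0.36, and 5.45% of all tested genes were called as lower. The lactate dehydrogenase gene ldhbb measured 507 ± 125 FPKM in the mutant and 1199 ± 61.8 FPKM in the wild type (log2 fold change -1.27, limma adjusted p = 0.00867). The mitochondrial pyruvate carrier gene mpc2 fell from 300 ± 36.5 to 150 ± 8.73 FPKM (log2 fold change -0.99, limma adjusted p = 0.00724). Both calls held under each of the 13 alternatives. The others were the mitochondrial aspartate aminotransferase gene got2a (63.2 to 34.5 FPKM), the alanine-glyoxylate aminotransferase gene agxtb (673 to 343 FPKM) and the oxoglutarate carrier gene slc25a11 (39.3 to 26.0 FPKM). Their calls were lost in 3, 5 and 8 of 13 alternatives. Leaving out mutant replicate 1 or wild type replicate 3 gave 3 calls in this list, and leaving out mutant replicate 2 or wild type replicate 2 gave 2.

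Pyruvate carboxylase makes the oxaloacetate that phosphoenolpyruvate carboxykinase uses. Its gene pcxa measured 43.3, 42.2 and 52.3 FPKM in the mutant libraries and 72.0, 59.3 and 69.9 FPKM in the wild type libraries. The groups were apart, and the log2 fold change of -0.54 did not pass (limma adjusted p = 0.0589). The pcxa difference passed in 3 of 13 alternatives, a filter of 5 FPKM, median scaling and limma voom on the recovered reads. Its paralog pcxb measured 7.7 FPKM in the mutant and 9.07 FPKM in the wild type (adjusted p = 0.321). The pcxa level was then 1.46 times higher in the wild type, against 1.42 times for g6pca.1 and 1.56 times for pck2. The pck2 ratio was itself 1.46 without mutant replicate 1 or without wild type replicate 3.

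Genes of the reversible steps that gluconeogenesis shares with glycolysis went in both directions. Against 5.45% of all tested genes called as lower and 5.91% as higher, 3 of 13 tested genes here fell and 2 rose. The other 8 did not pass, and the list's median was 0.23. Among those that fell, gapdh, for glyceraldehyde-3-phosphate dehydrogenase, went from 3645 ± 476 to 2351 ± 287 FPKM. The phosphoglycerate mutase gene pgam1a fell from 76.0 to 49.6 FPKM. In the other direction, gpia, for glucose-6-phosphate isomerase, rose from 71.4 ± 4.08 to 154 ± 32.2 FPKM (limma adjusted p = 0.0122). An aldolase A gene, aldoaa, rose to 32.8 ± 19.4 FPKM, 3.26 times its wild type level. Its mutant libraries measured 17.5, 26.2 and 54.6 FPKM, and its log2 fold change of 1.47 was 1.04 without mutant replicate 3. The gpia call was lost in 1 of 13 alternatives, and those of aldoaa, gapdh and pgam1a in 5, 6 and 8. The count of 5 was 2 without wild type replicate 1 or 3, 1 without mutant replicate 2, and 0 when wild type replicate 2 was left out.

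Of 11 tested genes of the opposing glycolytic steps and their control, 2 rose, 1 fell and 8 did not pass, with a median of -0.10. As shares of all tested genes, 5.91% rose and 5.45% fell. The pyruvate kinase gene pkma rose from 6.05 to 15.6 FPKM and hkdc1, of the hexokinase family, from 1.77 to 5.10 FPKM. No gene was matched to another pyruvate kinase gene, pklr, so its level is not known here. The gene pdk4, whose kinase turns off pyruvate dehydrogenase, fell from 12.2 to 6.74 FPKM. These calls were each lost in 4 to 6 alternatives, and the count of 3 was 1 without wild type replicate 1 and 0 without mutant replicate 2 or wild type replicate 2. Glucokinase, which opposes glucose-6-phosphatase, was near its floor. Its gene gck measured 1.8, 0.128 and 0.394 FPKM in the mutant libraries and 1.02, 0.977 and 0.318 FPKM in the wild type libraries and did not pass the expression filter. The ratio of fbp1b to the liver phosphofructokinase gene pfkla was 663, 374 and 617 in mutant livers against 1896, 6247 and 1406 in wild type livers, without overlap. With 1 added to each FPKM the mean log2 ratios were 7.32 and 8.8 (two-sided exact permutation p = 0.1, adjusted 0.14), and with pfkla under 1 FPKM in both group means the added 1 largely set their size.

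Other genes of glucose output showed no call. Among 7 tested genes, 0 passed with limma, a rule that 11.4% of all tested genes met. In this list 2 had an unadjusted p under 0.05. The ubiquitous glucose-6-phosphatase gene g6pc3 measured 3.92 FPKM in the mutant and 3.83 FPKM in the wild type (adjusted p = 0.978). The glucose transporter gene slc2a2, the exit of glucose from the hepatocyte, measured 61.5 and 65.1 FPKM (adjusted p = 0.76). The liver glycogen phosphorylase gene pygl measured 319 and 418 FPKM (adjusted p = 0.138). The further glucose-6-phosphatase gene g6pcb held at most 3 reads in a library.

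**Figure D3:**
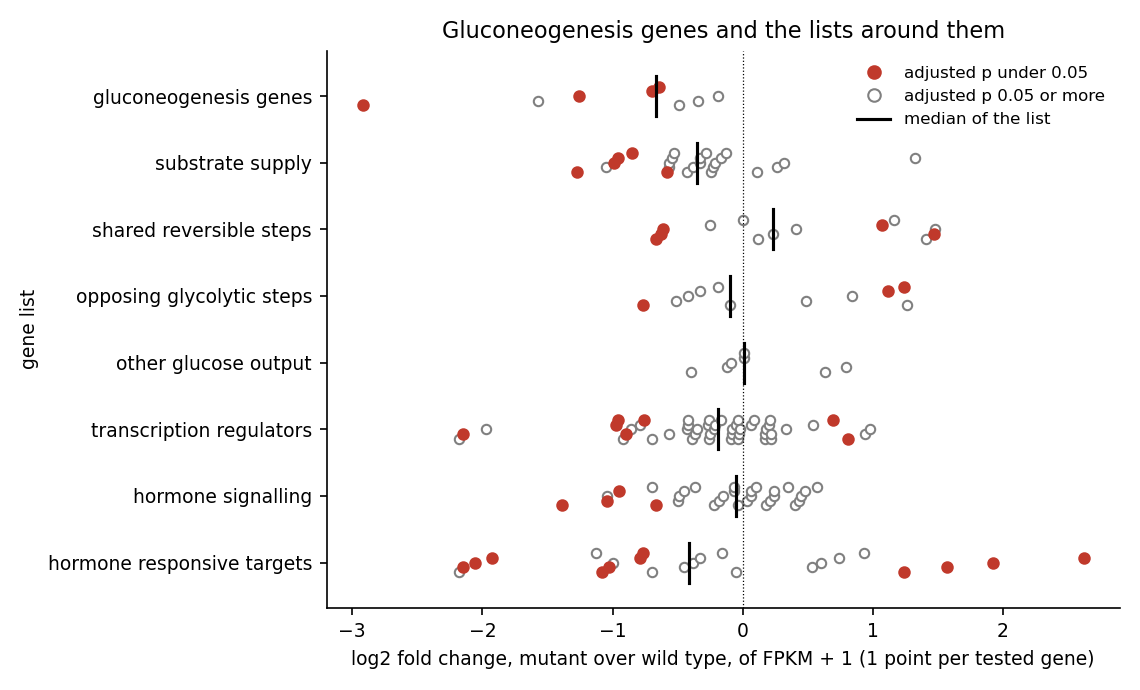
Log2 fold change of FPKM + 1, mutant over wild type, for every tested gene of the gluconeogenesis set and of 7 lists around it, with filled points for an adjusted p under 0.05 (limma) and a bar at each list's median. The gluconeogenesis genes have a median of -0.67 and no point above 0, whereas points lie on both sides of 0 in each of the other lists.

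Among regulators of gluconeogenic transcription, 5 of 48 tested genes fell, 2 rose and 41 did not pass, with a median of -0.19. Over all tested genes, 11.4% were called in either direction and 5.45% as lower. The gene hnf4a, for a nuclear receptor that binds gluconeogenic promoters in mammals, measured 17.1, 18.1 and 21.9 FPKM in the mutant libraries and 31.6, 41.8 and 36.0 FPKM in the wild type libraries. The groups were well apart (log2 fold change -0.90, standard error 0.16, limma adjusted p = 0.0158), and the call was lost in 3 of 13 alternatives. The Kruppel-like factor genes klf9, a glucocorticoid target, and klf15, a fasting-induced factor in mouse liver, fell by 2.15 and 0.97 on the log2 scale, from wild type levels of 47.5 and 26.8 FPKM. The gene sik2b, for a salt-inducible kinase that holds back CREB coactivators in mammals, fell by 0.96 on the log2 scale to 8.49 FPKM. The forkhead gene foxa3 rose from 24.2 to 43.1 FPKM. The gene zgc:66101, taken as the salt-inducible kinase gene sik3 through a RefSeq synonym only, rose from 25.6 to 41.8 FPKM. The klf9 libraries ran from 4.86 to 14.3 FPKM in the mutant and from 28.1 to 69.2 FPKM in the wild type. Its call was lost in 2 of 13 alternatives, no filter and without wild type replicate 2. The calls of klf15, sik2b, foxa3 and zgc:66101 were each lost in 6 of 13 alternatives. The count of 7 was 1 without mutant replicate 1 or 2, 0 without wild type replicate 2, and 11 with median scaling.

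Several named regulators of pck1 in mammals did not pass. The cAMP response factor gene creb1a measured 2.71 FPKM in the mutant and 3.17 FPKM in the wild type (limma adjusted p = 0.449). Its coactivator gene crtc2 measured 4.16 and 3.95 FPKM (adjusted p = 0.815). The glucocorticoid receptor gene nr3c1 measured 5.84, 5.56 and 9.36 FPKM in the mutant libraries and 10.1, 8.75 and 8.62 FPKM in the wild type libraries. Mutant replicate 3 lay among the wild type libraries, and the difference did not pass (adjusted p = 0.244).

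**Figure D4:**
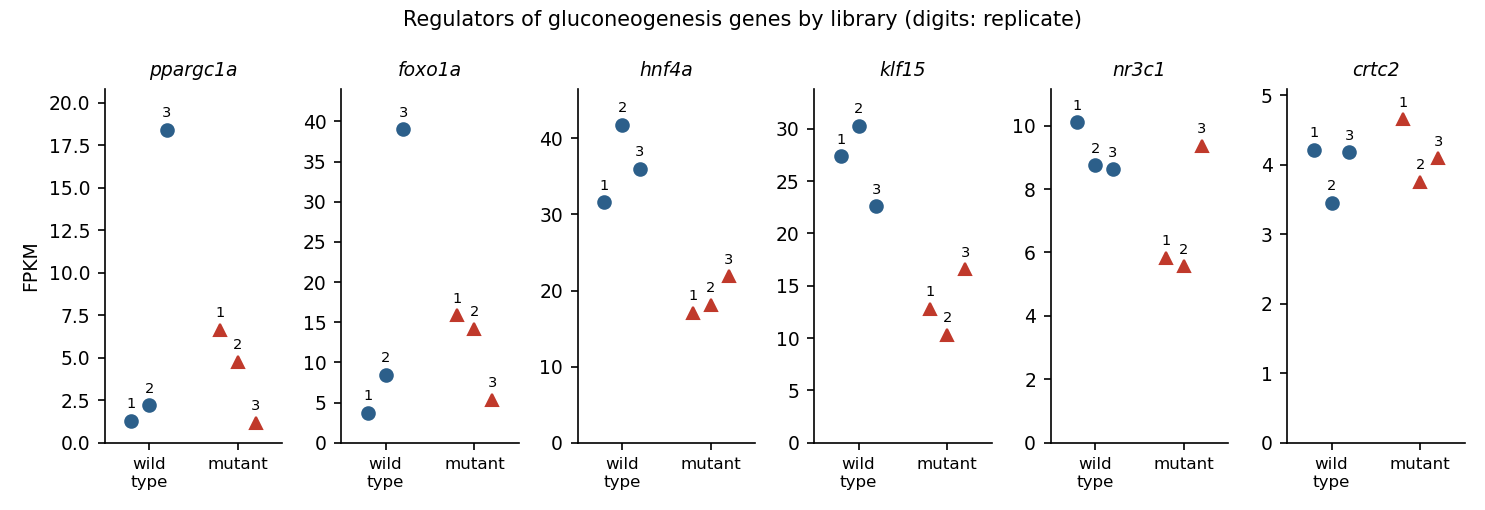
FPKM of 6 regulator genes by library, with digits for the replicate number (wild type AB as circles, capn3b mutant as triangles). The groups do not overlap for hnf4a and klf15, and wild type replicate 3 stands far above the other libraries for ppargc1a (18.4 FPKM) and foxo1a (39.0 FPKM).

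Of 30 tested genes for receptors and transducers of glucagon, insulin and adrenaline signals, 4 fell, none rose and 26 did not pass, with a median of -0.06. The shares called over all tested genes were 11.4% in either direction and 5.45% as lower. The adrenergic receptor genes adrb2b and adra1aa fell from 6.17 ± 1.44 to 1.71 ± 0.167 FPKM and from 13.8 ± 1.33 to 6.68 ± 0.911 FPKM (limma adjusted p = 0.00503 and 0.00977). Both calls held under every alternative run. On the insulin side, irs1, for a docking protein of the insulin receptor, fell from 1.62 to 0.641 FPKM. Every mutant library was under 1 FPKM for irs1, so it met the expression filter through the wild type libraries alone. The gene pik3r1, for a regulatory subunit of phosphoinositide 3-kinase, fell from 62.0 to 30.1 FPKM. The calls of irs1 and pik3r1 were lost in 4 of 12 and 6 of 13 alternatives. The count of 4 was 2 when either mutant replicate 1 or 2, or wild type replicate 2, was left out. The glucagon receptor genes gcgra and gcgrb and the insulin receptor genes insra and insrb did not pass, with adjusted p of 0.773, 0.623, 0.698 and 0.558.

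Genes that respond to insulin, glucagon or glucocorticoids in mammals went in both directions. Of 24 tested genes, 7 fell, 4 rose and 13 did not pass, with a median of -0.42. The same rule called 5.45% of all tested genes as lower and 5.91% as higher. The gene igfbp1a, for an insulin-like growth factor binding protein that insulin represses in mammals, measured 380, 464 and 200 FPKM in the mutant libraries and 102, 41.0 and 34.7 FPKM in the wild type libraries. Each mutant library was above each wild type library (log2 fold change 2.62, standard error 0.44, limma adjusted p = 0.0126). The tyrosine aminotransferase gene tat, a classic glucocorticoid and glucagon target, rose from 105 ± 26.5 to 245 ± 14.9 FPKM (adjusted p = 0.00868), and the kinase gene sgk1, another glucocorticoid target, from 11.8 ± 4.15 to 47.9 ± 15.9 FPKM (adjusted p = 0.0103). The calls of tat and sgk1 held under each of the 13 alternatives, and that of igfbp1a was lost in 1. The mean level of igfbp1a was 5.88 times higher in the mutant, and 9.19 times higher if wild type replicate 1 was left out.

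Other genes of the same list fell with pck1. The phosphatidate phosphatase gene lpin1 measured 3.3, 4.68 and 5.86 FPKM in the mutant libraries and 11.9, 30.2 and 29.2 FPKM in the wild type libraries (log2 fold change -2.06, limma adjusted p = 0.0126). As for pck1, wild type replicate 1 was the lowest of its group. The tryptophan dioxygenase gene tdo2a fell from 464 ± 80.1 to 226 ± 38.6 FPKM (adjusted p = 0.0151), and klf9 and pdk4, described above, belong to this list too. Glucocorticoid-induced genes of mammals thus stood on both sides, and the following were picked after their values were seen. The leucine zipper gene tsc22d3 fell from 85.1 to 24.7 FPKM (adjusted p = 0.0346), the zinc finger gene zbtb16a rose from 2.33 to 9.74 FPKM (adjusted p = 0.0339), and the chaperone gene fkbp5, at 77.3 ± 70.1 FPKM in mutant livers and 254 ± 82.2 FPKM in wild type livers, did not pass (adjusted p = 0.0938). The tsc22d3 call was lost in 7 of 13 alternatives and the zbtb16a call in 4, those of lpin1 and tdo2a in 1 each. Leaving out mutant replicate 3 raised the wild type to mutant ratio of tsc22d3 from 3.45 to 5.27, and leaving out mutant replicate 2 lowered the mutant to wild type ratio of zbtb16a from 4.17 to 2.63. Wild type replicate 2 weighed most on the list, where 2 genes in place of 11 were called without it, and 7 were called without mutant replicate 1.

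**Figure D5:**
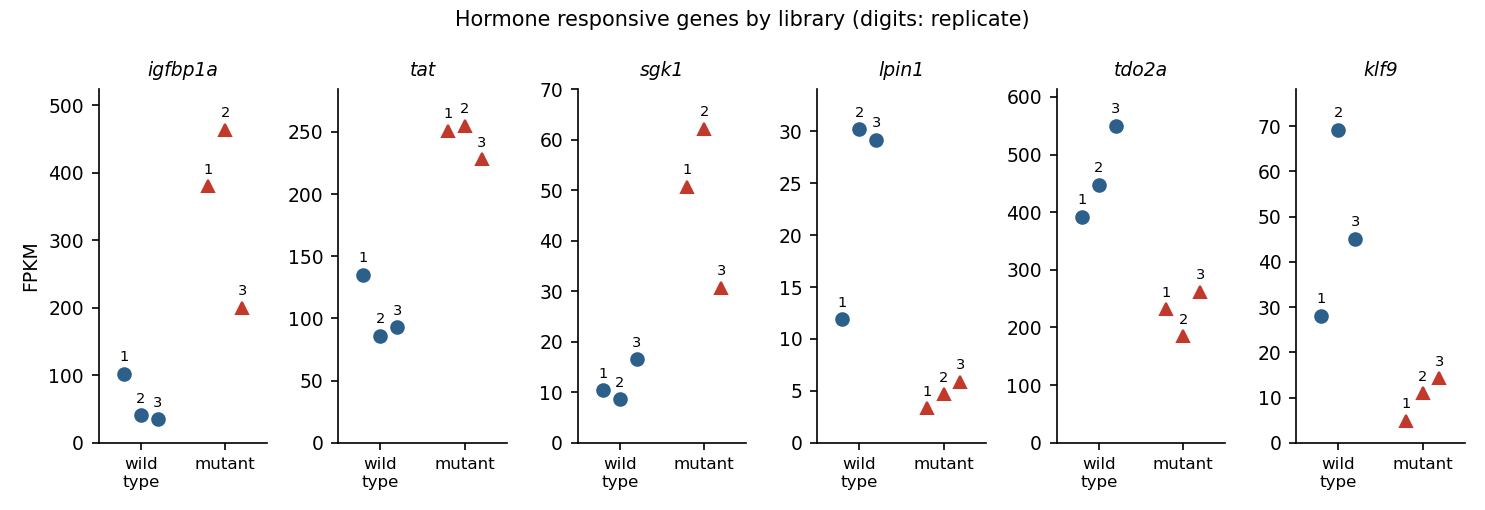
FPKM of 6 hormone responsive genes by library, with digits for the replicate number (wild type AB as circles, capn3b mutant as triangles). The mutant libraries lie above the wild type libraries for igfbp1a, tat and sgk1 and below them for lpin1, tdo2a and klf9.

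Markers of other cells and a measure of RNA make-up also differed between the groups. For the counts below, the shares called over all tested genes were 5.45% as lower and 5.91% as higher. Of 11 tested erythrocyte markers 8 fell, and the list's summed level was 213 to 247 FPKM in the mutant against 440 to 523 FPKM in the wild type. Of 13 macrophage markers 6 rose (431 to 704 against 262 to 448 FPKM), and of 7 neutrophil markers 5 rose (35.1 to 85.0 against 16.8 to 24.3 FPKM). In mammals, kidney and intestine express gluconeogenic genes too. Of 5 tested enterocyte markers, fabp2 alone was called as fallen (170 to 470 against 525 to 724 FPKM for the list). The fitted log2 fold change was negative for 4 of the 5, with a median of -0.87. In 3 of the 5, every mutant library lay below every wild type library, an order found in 14.7% of tested genes. The wild type level of fabp2 was 20.3 times the mutant level, 8.01 times without wild type replicate 1 and 32.8 times with mutant replicate 3 left out, and its call was lost in 5 of 12 alternatives. The intestinal genes fabp6, cdx1b and slc15a1b were at or near 0 in both groups. Of 6 tested kidney tubule markers, slc22a2 alone fell (90.7 to 99.1 against 131 to 154 FPKM for the list). The tubule genes clcnk, lrp2a and slc4a4a were at or near 0. Of 21 exocrine pancreas markers 1 rose, with sums that overlapped (320 to 1134 against 330 to 2381 FPKM). Of 10 biliary and stellate markers 2 rose (723 to 904 against 416 to 474 FPKM), and of 2 tested muscle and fat markers 1 rose (31.3 to 38.8 against 17.3 to 29.1 FPKM). Of 21 hepatocyte markers 5 rose and 3 fell. Mitochondrially encoded genes took 4.47% to 5.48% of all FPKM in the mutant and 6.25% to 8.61% in the wild type. The part of these differences in the lower gluconeogenic levels was not tested.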

How the data were processed

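Per the labels' protocols, RNA was extracted from dissected adult livers with TRIzol and a column kit and sequenced as standard Illumina libraries, 3 per genotype. The authors deposited FPKM values for 23354 genes, and a list of transcript events with FPKM for each library. Per the submitters' processing notes, GRCz11 was the build and DESeq2 a tool; the sources used here do not name the aligner, counter or annotation release. The symbols are those of the deposited table, and 21036 of its identifiers matched the gene name table.

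FPKM are not counts, so log2(FPKM + 1) was fitted on genotype alone in limma 3.58.1 under R 4.3.3, without a replicate block, with an intensity trend, two-sided tests and Benjamini-Hochberg adjustment over 11164 genes. On the fitted scale the change of low genes is understated. Reads were recovered with depths taken from the ratios between libraries and, for each gene, the shortest length that made all its values whole reads. Such a length was found for 100% of genes, within 1e-05 reads. Since the length was chosen to give whole reads, the 100% is no independent check, and the read numbers are the smallest that fit. With limma voom on these reads, an alternative, 1387 genes were called. The other alternatives were a pseudocount of 0.1, no filter, a filter of 5 FPKM, median scaling, quantile normalization, the replicate block and each library left out, 13 in all (12 for a gene left out by the filter of 5 FPKM). Ratios of gene pairs were compared by exact permutation; the planned pair of pck1 and pklr was not computed, since no gene was matched to pklr. Python 3.11.15 with pandas 2.3.3, scipy 1.17.1 and matplotlib 3.10.9 was used.

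The 8 genes and the lists were chosen with earlier results of these data known. Named by rule were the 8 genes, up to 6 called genes with the smallest p of each pathway list, a fixed set of paralogs and regulators, and the 5 genes most like pck1. A gene under this rule is not reported here. Of 53 such genes 18 overlap another gene of the table, so their reads may be shared, among them pck1, g6pca.2, fbp1a, slc37a4a, agxtb, pdk4, klf15, sik2b, lpin1, pcxa, pcxb, crtc2, aspdh, MAF1 and eif4a2. Genes such as gcgra or slc2a2 named outside the rule were chosen after their values were seen.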

Additional observations from a re-analysis of the deposited data

How the results depend on the processing

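All 8 gluconeogenesis genes had negative log2 fold changes under every alternative except ppargc1a, whose value was 0.348 without mutant replicate 3 and turned to 0.759 when wild type replicate 3 was left out, within a leave-one-out range of -0.79 to 0.759. With 1 library left out, 2 to 5 of the 8 passed the threshold, 414 to 1134 of all genes, 2 to 4 substrate supply genes, 0 to 5 of the shared reversible steps, 0 to 4 of the opposing glycolytic steps, 0 to 8 regulators, 2 to 4 hormone signalling genes and 2 to 10 hormone responsive genes. With no filter, 592 of all genes, 3 substrate supply genes, 2 of the shared steps, 0 of the opposing steps, 1 regulator, 2 hormone signalling genes and 5 hormone responsive genes passed, over 23354 genes tested. Median scaling gave 11 regulators in place of 7. Calls were 52.1% higher in the mutant as reported, 43.0% with median scaling and 61.1% without wild type replicate 3. Libraries with the same number did not deviate together, with correlations of -0.045, -0.01 and -0.083, and no library correlated best with its own number. With the replicate block 950 genes and 3 of the 8 passed, and pck2 was the call lost (adjusted p = 0.0544). Low read numbers limit fbp1a, gck and slc37a4b.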
